A study of Mus musculus with 8 samples.

Results

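The genes described here encode the proteins of the cytoplasmic ribosome. They were chosen by name, as the entries of the deposited table called Rpl or Rps followed by a number, by P and a number, or by a, with at most a short suffix. This gave 88 members among 37767 gene entries: 52 of the large subunit and 36 of the small subunit. By annotation, 77 members are core genes, 6 are protein-coding paralogs and 5 are pseudogenes that carry a gene-like symbol (Rpl6l, Rps12l1, Rps3a2, Rps3a3 and Rps4l). Ribosomal proteins with other names, such as Fau, Rack1 and Rpl36al, fall outside the pattern and are given apart. Names alone chose the members, and no measured value did.

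Ribosomal proteins are needed in large and balanced amounts, and in dividing cells the genes for them are among the most heavily transcribed by RNA polymerase II. Their messenger RNAs are known for a terminal oligopyrimidine (TOP) tract, a run of C and U at the 5′ end through which mTOR signalling sets their translation. Many of the genes are short, carry small nucleolar RNAs (snoRNAs) in their introns, and have given rise to large families of processed pseudogenes, which are intronless copies made from the mature messenger RNA.

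The cells were male mouse embryonic stem (ES) cells of 129 background, grown in serum with leukaemia inhibitory factor and without feeder cells, and every group was conditionally mutant for Ythdc1. The Ythdc1 protein binds N6-methyladenosine on RNA in the nucleus. Cells received 4-hydroxytamoxifen (4OHT) at 1 μg/ml or DMSO over 4 days, then in every group 100 μM DRB, a reversible inhibitor of polymerase II elongation, for 3 h. After DRB was washed out, RNA was labelled with 1 mM 4-thiouridine (4sU) for 8 or 0 min and sequenced (4sUDRB-seq), so that RNA made after release could be read. The 4 groups were 4OHT at 8 min, DMSO at 8 min, 4OHT at 0 min and DMSO at 0 min, with 2 libraries each, numbered 1 and 2. The libraries of 0 min had no labelling time. Titles of the samples name ESC 1 at 0 min and ESC 2 at 8 min, but columns numbered 1 and 2 exist for each time, so whether the ESC number changed together with labelling time is not settled. Nothing states that libraries of a group came from separate cultures, and p-values measure the spread between these libraries.

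Recovered reads totalled 93.1 to 134 M (mega) per library at 8 min and 46.3 to 61.4 M at 0 min. Ythdc1 itself had 2041 and 2466 scaled reads with 4OHT at 8 min, against 2940 and 3593 with DMSO (log2 fold change relative to all genes −0.53 ± 0.13 SE, limma adjusted p = 0.0026). On the deposited scale, described below, it had 2696 and 5168 with 4OHT, against 1409 and 2708 with DMSO (0.93, limma adjusted p = 0.17). All 10 ES cell markers examined lay at or above 1 read per 1 M gene reads in the 8 libraries, and their summed level at 8 min was 1104 to 1112 per 1 M with 4OHT, against 1227 to 1388 with DMSO. Of the fibroblast or feeder list 1 of 8 genes lay at or above that level throughout, with a sum of 7.68 to 9.18 per 1 M with 4OHT and 11.2 to 12.7 with DMSO at 8 min, and Postn, Lum and Dcn were at 0 in at least 1 library. Trophoblast and primitive endoderm lists had 3 of 6 and 2 of 6 genes at that level, with Elf5, Sox17, Sox7 and Foxa2 at 0 in at least 1 library, and their sums at 8 min overlapped between treatments. Of 4 neural markers (Pax6, Sox1, Neurog2, Tubb3) 2 lay at that level, Sox1 was at 0 in at least 1 library, and the sum at 8 min was 18.5 to 21.7 per 1 M with 4OHT, against 16.25 to 16.26 with DMSO. The part of these differences in the results below was not tested. In bulk RNA, fewer cells of a type and less RNA per cell cannot be told apart.

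Transcription of a TOP gene is known to begin within its pyrimidine run, so the bases around the start site were read for the members described below. RefSeq promoter windows (GRCm38.p6) were found for 63 of the 88 members. A run of at least 8 pyrimidines on the gene strand, overlapping the 10 bases on either side of the annotated start, was present in 29 of the 63 (46.0%), against 2743 of 17429 other protein-coding genes (15.7%). The letters CTTTCC, the core of many TOP tracts, lay on the gene strand within 50 bases of the start in 19 of the 63 (30.2%), against 5.03% of the others. CCGGAAG, a core recognised by ETS family factors, lay on either strand of the 300-base window in 26 members (41.3%), against 12.8%. A match describes the letters in the window and shows no bound factor. The windows below run from 15 bases before the annotated start to 15 bases after it, 5′ to 3′ on the gene strand, with the longest pyrimidine run near the start, as far as it lies in the window, in capitals. They are shown because these members changed with 4OHT or with labelling time, or held the most reads, and they range from a long run (Rpl22l1, Rpl4) to short ones (Rpl24, Rps15).
Rpl22l1 (chr3:28805493-28805522, plus strand): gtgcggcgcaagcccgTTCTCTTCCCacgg
Rpl4 (chr9:64173372-64173401, plus strand): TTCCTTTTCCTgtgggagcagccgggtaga
Rpl36a (chrX:134585639-134585668, plus strand): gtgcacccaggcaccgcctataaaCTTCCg
Rpl27 (chr11:101442230-101442259, plus strand): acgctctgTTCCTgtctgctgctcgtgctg
Rpl11 (chr4:136053379-136053408, minus strand): ctgaCCCataaggccacggggccggaagtc
Rps15 (chr10:80292416-80292445, plus strand): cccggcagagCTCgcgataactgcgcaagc
Rpl24 (chr16:55966260-55966289, plus strand): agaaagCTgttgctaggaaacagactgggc

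All 88 members passed the filter on low values, a deposited value of 10 or more in 2 or more libraries. At 8 min they took 0.821% and 0.833% of the reads on gene entries with 4OHT, against 0.954% and 0.919% with DMSO. The 77 core genes took 0.751% and 0.759% with 4OHT, against 0.874% and 0.847% with DMSO, so both 4OHT libraries lay below both DMSO libraries. At 0 min the share of all members was 0.902% and 0.753% with 4OHT and 0.896% and 0.763% with DMSO, and there the groups overlapped. Per kilobase of annotated gene, introns included, the median core gene stood at 166 and 270 on the deposited scale with 4OHT at 8 min, against 70.5 and 104 with DMSO. The median protein-coding gene tested stood at 6.03 and 9.31 with 4OHT and at 1.99 and 3.08 with DMSO. These lists were not matched for gene length, and the members that are not pseudogenes had a median span of 3183 bases. The gap is therefore not a measure of a difference in transcription. Rpl4, a large subunit protein that lines the peptide exit tunnel, held the most reads of all members.

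**Figure D1:**
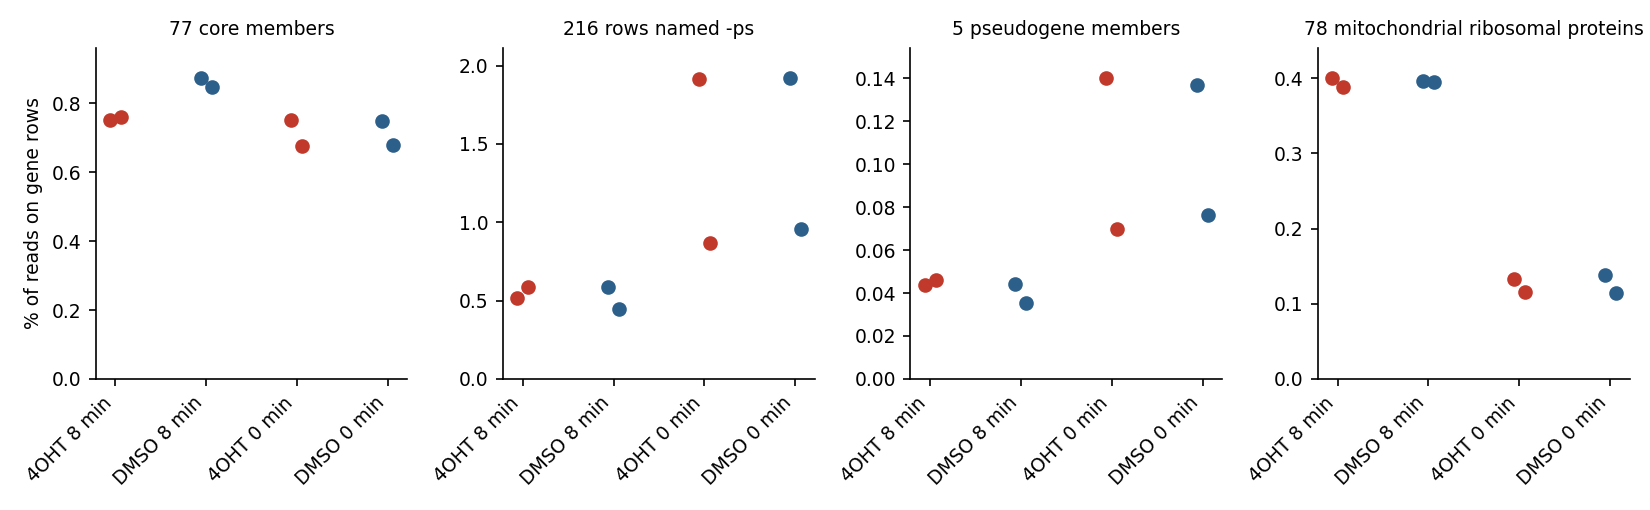
Share of reads on gene entries (%, linear axis from 0) in each of the 8 libraries, for the 77 core members, the 216 pseudogene entries named with -ps, the 5 pseudogene members and the 78 mitochondrial ribosomal protein genes. Red points are 4OHT and blue points DMSO libraries, with number 1 left of number 2. At 8 min the core members took 0.751% and 0.759% with 4OHT, below 0.874% and 0.847% with DMSO, while the mitochondrial genes took 0.401% and 0.388% with 4OHT and 0.396% and 0.395% with DMSO.

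The first comparison asked how 4OHT treatment of the conditional mutant cells changed ribosomal protein RNA in the 8 min libraries. These libraries need not hold newly made RNA alone. Without labelling time, at 0 min, the median core gene stood at 38.4 and 66.2 per kilobase on the deposited scale with 4OHT. With DMSO at 0 min it stood at 40.3 and 48.4. The part of such carried-over RNA in the 8 min values was not tested. The direction of the 4OHT effect depends on the scale. The deposited values are reads per 1000 reads of a single entry, the large-subunit ribosomal RNA repeat LSU-rRNA_Hsa, which reads 1000 in every library. Also deposited were 60 entries of spike-in RNA (ERCC), which no fit here used for scaling. They had 48836 and 51734 recovered reads with 4OHT at 8 min, against 30330 and 62724 with DMSO. The members had 667455 and 769919 with 4OHT, against 727579 and 584003 with DMSO. On the deposited scale all but 428 of 20640 genes lay higher with 4OHT, with a median log2 fold change of 1.43. The median of the members was 1.24, and 27 of them were higher and 0 lower (limma on all 8 libraries, adjusted p below 0.05), where 58.8% of genes tested were higher and 0.131% lower. At an unadjusted p below 0.05, 57 members differed. With the library number as a replicate block, 85 members were higher and 1 lower. The share of all genes called in that fit, or with a library left out, is not given here. The count of 27 also rested on single libraries: it was 0 without DMSO number 1 or without 4OHT number 2 of 8 min, and 63 without 4OHT number 2 of 0 min.

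Relative to all genes, more ribosomal protein genes fell with 4OHT than rose, and 60 of the 88 passed in neither direction. After median-ratio scaling of the 4 libraries of 8 min, 27 members fell and 1 rose, where 16.7% of the genes tested fell and 18.6% rose (limma, adjusted p below 0.05). The median log2 fold change was −0.23 over the members and −0.00 over all genes. Both 4OHT libraries lay below both DMSO libraries for 67 of the 88 members, where 33.7% of all genes showed that order, and above for 3, where 33.6% of all genes did. Of the 77 core genes 23 fell and 0 rose, and 62 were separated downward. By subunit, 19 of 52 large subunit members fell and 1 rose, and 8 of 36 small subunit members fell and 0 rose. The 27 were also called lower by edgeR and by DESeq2, which called 27 and 30. When all 8 libraries were scaled and fitted together, 0 members passed the threshold, with a median of −0.30. The share of all genes called in that fit, or with a library left out, is not given here. Without either 4OHT library of 8 min, 12 were called lower.

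**Figure D2:**
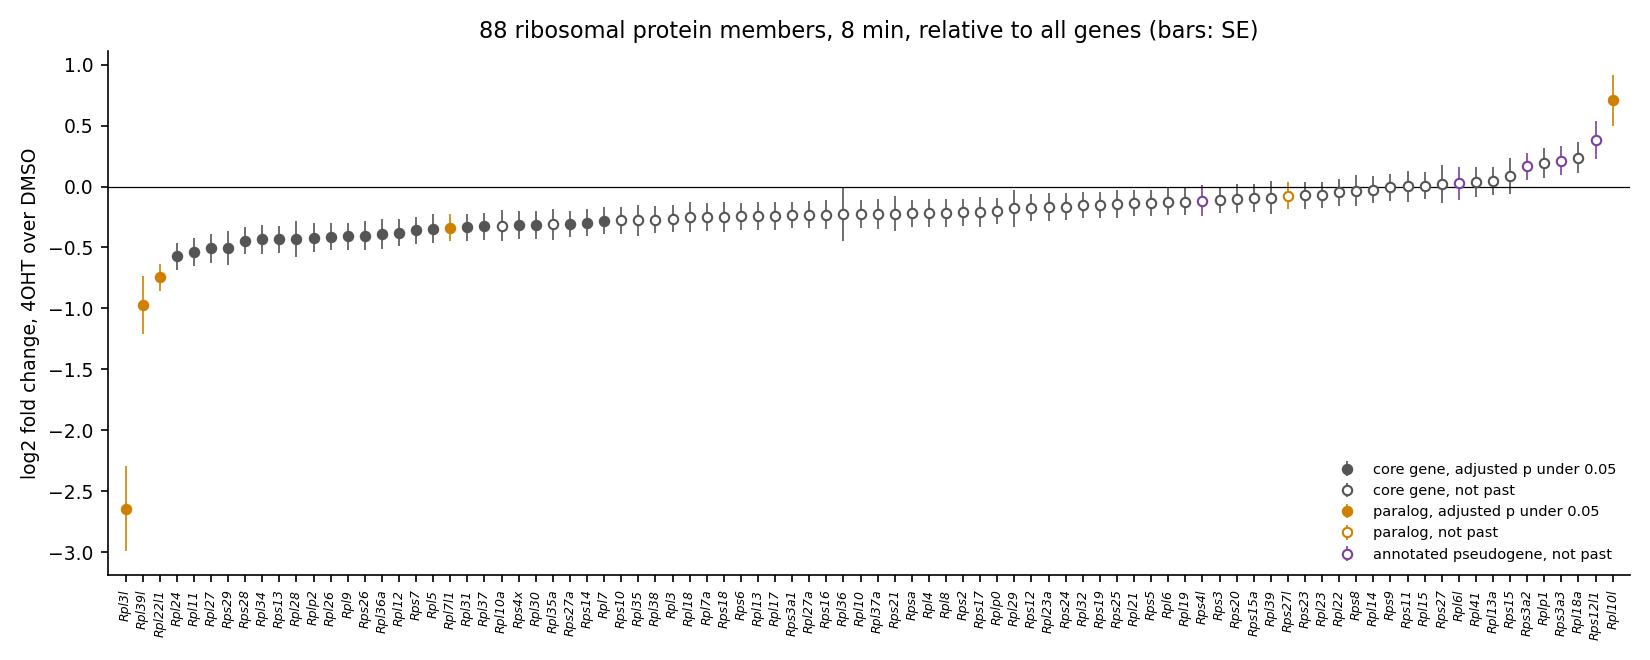
Log2 fold change, 4OHT over DMSO at 8 min relative to all genes, of the 88 members in rank order. Points are limma estimates with SE bars, filled where the adjusted p was below 0.05, in grey for core genes, orange for paralogs and purple for annotated pseudogenes. Most core genes form a shallow slope between −0.57 and 0.24, and the largest differences in both directions are paralogs, from −2.64 for Rpl3l to 0.71 for Rpl10l.

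Among core genes, those of the large subunit came first by p. Rpl24, a late-joining protein at the subunit interface, had 405 and 387 scaled reads with 4OHT, against 573 and 605 with DMSO (log2 fold change −0.57 ± 0.11 SE, limma adjusted p = 0.000275). Rpl11 forms with Rpl5 and 5S ribosomal RNA the particle that can bind Mdm2 and so stabilise p53. It had 343 and 310 scaled reads with 4OHT, against 450 and 500 with DMSO (−0.54 ± 0.11, limma adjusted p = 0.000762). Its partner Rpl5 had 1542 and 1613 with 4OHT, against 1804 and 2222 with DMSO (−0.34 ± 0.12, limma adjusted p = 0.0275). Both genes of this pair were therefore below DMSO in both 4OHT libraries, which the naming rule required of Rpl11. Rpl27, another large subunit protein, had 234 and 229 scaled reads with 4OHT, against 313 and 347 with DMSO (−0.51 ± 0.12, limma adjusted p = 0.00175).

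Among small subunit genes the clearest were Rps28, which encodes a protein near the messenger RNA exit site, and Rps13. Rps28 had 434 and 495 scaled reads with 4OHT, against 627 and 637 with DMSO (log2 fold change −0.45 ± 0.11 SE, limma adjusted p = 0.00318). Its call was lost without 4OHT number 1 (limma adjusted p = 0.0908). Rps13 had 363 and 364 with 4OHT, against 479 and 503 with DMSO (−0.43 ± 0.11, limma adjusted p = 0.00366). In both genes the 2 treatments did not overlap, which the naming rule required. The remaining core genes that fell were Rps29, Rpl34, Rpl28, Rplp2, Rpl26, Rpl9, Rps26, Rpl36a, Rpl12, Rps7, Rpl31, Rpl37, Rps4x, Rpl30, Rps27a, Rps14 and Rpl7, with log2 fold changes of −0.50 for Rps29 to −0.28 for Rpl7.

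The acidic stalk recruits translation factors to the ribosome, and its 3 members did not move as a block. Rplp2 had 387 and 309 scaled reads with 4OHT, against 469 and 457 with DMSO, and fell (log2 fold change −0.42 ± 0.12 SE, limma adjusted p = 0.00853). Rplp0, the scaffold of the stalk, had 644 and 637 with 4OHT, against 761 and 710 with DMSO (−0.20 ± 0.11, limma adjusted p = 0.156). Rplp1 had 331 and 383 with 4OHT, against 342 and 281 with DMSO (0.20 ± 0.12, limma adjusted p = 0.225), and its groups overlapped. Just outside the threshold lay Rpl35a, with 215 and 195 with 4OHT and 235 and 275 with DMSO (−0.31 ± 0.13, limma adjusted p = 0.0568).

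**Figure D3:**
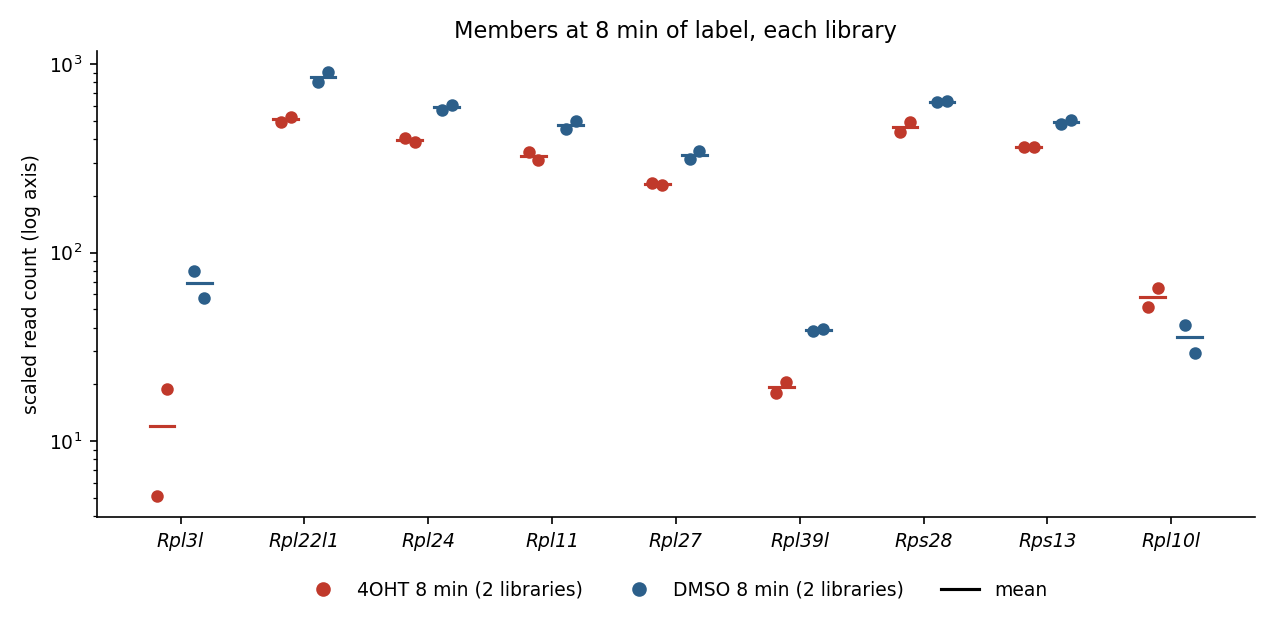
Scaled read count (log axis) of 9 members in the 4 libraries of 8 min, 4OHT in red left of DMSO in blue, with number 1 left of number 2 and a line at each group mean (n = 2). The treatments do not overlap for any of the 9, which the naming rule required: 8 lie lower with 4OHT, among them Rpl22l1 with 494 and 525 against 802 and 908, and Rpl10l lies higher.

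Paralogs held the most extreme values. Rpl3l replaces Rpl3 in the ribosomes of heart and skeletal muscle. At 8 min it had 5.09 and 18.9 scaled reads with 4OHT, which are 76 and 320 recovered reads, against 80.0 and 57.4 scaled reads with DMSO (log2 fold change −2.64 ± 0.35 SE, limma adjusted p = 3.4e-06). It was the 1 member with a negative change on the deposited scale too (−1.24 ± 0.64, limma adjusted p = 0.0776). Its parent Rpl3 had 1343 and 1230 with 4OHT, against 1522 and 1566 with DMSO (−0.26 ± 0.11, limma adjusted p = 0.0647).

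Rpl39l, a paralog of Rpl39 known from male germ cells, had 17.96 and 20.63 scaled reads with 4OHT, against 38.2 and 39.2 with DMSO (log2 fold change −0.97 ± 0.24 SE, limma adjusted p = 0.00265). Rpl22l1, whose messenger RNA is a known target of repression by Rpl22, had 494 and 525 with 4OHT, against 802 and 908 with DMSO (−0.74 ± 0.11, limma adjusted p = 1.52e-05). Rpl7l1 had 426 and 429 with 4OHT, against 514 and 569 with DMSO (−0.34 ± 0.11, limma adjusted p = 0.0199). These genes, like Rpl3l, lay below DMSO in both 4OHT libraries.

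Rpl10l, an intronless autosomal copy of the X-linked gene Rpl10 that serves in spermatogenesis, was the member that rose. It had 51.3 and 64.7 scaled reads with 4OHT, against 41.4 and 29.4 with DMSO (log2 fold change 0.71 ± 0.21 SE, limma adjusted p = 0.0121). The call was lost without DMSO number 2 (limma adjusted p = 0.0998) and without 4OHT number 2 (limma adjusted p = 0.162). Rps27l, a paralog of Rps27 and a known p53 target, had 441 and 468 with 4OHT and 457 and 502 with DMSO (−0.08 ± 0.11, limma adjusted p = 0.634). Its groups overlapped. For the 9 members in the plot of 8 min libraries, limma adjusted p was 0.293 to 0.653 when all 8 libraries were scaled and fitted together.

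The 5 pseudogene members gave 0 calls in either direction, with a median of 0.17. Rps12l1 had the highest value, with 247 and 278 scaled reads with 4OHT and 253 and 159 with DMSO (log2 fold change 0.38 ± 0.16 SE, limma adjusted p = 0.0573). Rps4l, an intronless copy of Rps4x, had 187 and 173 with 4OHT, against 189 and 202 with DMSO (−0.12 ± 0.13, limma adjusted p = 0.503). Of the 30 members whose annotated span holds a snoRNA gene 6 fell, against 17 of the 47 core genes without one, with medians of −0.22 and −0.25, where 16.7% of all genes fell. That difference was not tested, and the strand of the snoRNA genes was not known.

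Other genes of translation were counted in the same fit, where 16.7% of all genes fell and 18.6% rose. Of 21 translation factors and other TOP genes 6 fell and 0 rose, with a median of −0.15. They included Tpt1 (log2 fold change −0.47, limma adjusted p = 0.00245), Naca (−0.42, limma adjusted p = 0.00414) and Eef1b2 (−0.41, limma adjusted p = 0.00491). Of 78 mitochondrial ribosomal protein genes, whose products act in a separate ribosome, 7 fell and 5 rose, with a median of −0.05. The 3 of smallest p were Mrps35 (0.55, limma adjusted p = 0.000525), Mrpl45 (−0.53, limma adjusted p = 0.000594) and Mrpl33 (−0.47, limma adjusted p = 0.00213). Of ribosomal protein genes with other names, Rack1 (−0.19, limma adjusted p = 0.17), Fau (−0.17, limma adjusted p = 0.439) and Rpl36al (0.26, limma adjusted p = 0.217) did not pass the threshold.

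Across the 83 members that are not pseudogenes, the signed log2 fold change followed gene length weakly, with Pearson r = −0.28 and Spearman rho = −0.09. It ran with the level per kilobase at 0 min with r = 0.60 and rho = 0.35, so members of higher level tended to have the less negative change. Both are descriptions across genes measured in the same libraries. Core spans and paralog spans together ranged from 982 to 11774 bases.

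At 0 min, before any labelling time, no difference of the members between treatments was detectable. By limma 0 members rose and 0 fell, where 0% of genes rose and 0% fell. At an unadjusted p below 0.05, 0 members and 232 of the 20640 genes differed, and edgeR and DESeq2 also called 0 members. The median log2 fold change was −0.08 over the members and −0.01 over all genes. Rpl35a, a large subunit gene mutated in some patients with Diamond-Blackfan anaemia, had 75.3 and 79.8 scaled reads with 4OHT, against 90.2 and 112 with DMSO (−0.37 ± 0.30 SE). Rpl39l had 3.43 and 2.67 with 4OHT, against 4.203 and 5.62 with DMSO, and Rpl10l had 25.9 and 13.4 with 4OHT and 17.2 and 8.85 with DMSO.

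Whether the effect of 4OHT differed between 8 and 0 min was tested as an interaction over all 8 libraries. By limma 0 members were higher and 0 lower, where 0% of genes were higher and 0% lower. At an unadjusted p below 0.05, 3 members and 1300 genes differed. edgeR and DESeq2 called 0 members, while DESeq2 called 165 genes. The 3 members were Rpl27 (difference of log2 changes −0.83 ± 0.27 SE, limma adjusted p = 0.746), Rpl24 (−0.69 ± 0.30, limma adjusted p = 0.783) and Rpl36a (−0.95 ± 0.41, limma adjusted p = 0.79). The median difference was −0.22 over the members and −0.08 over all genes.

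The change with labelling time set RNA collected 8 min after release against RNA collected with no labelling time, and was read within each treatment after median-ratio scaling of that treatment's 4 libraries. More members fell than rose at 8 min relative to 0 min. With 4OHT 34 members fell and 7 rose, where 25.2% of genes fell and 27.2% rose, and the median log2 fold change was −0.53 over the members and 0.09 over all genes. With DMSO 29 fell and 12 rose, where 26.1% of genes fell and 30.1% rose, with medians of −0.38 and 0.08. The count in either direction was 0 without either 8 min library of the treatment concerned, for 4OHT and for DMSO alike, so every call of a member with labelling time needs both 8 min libraries. For those fits, neither the share of all genes called nor the counts of the other gene lists below are given here.

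Many calls were shared between treatments. These have no library in common, but over the members the differences between numbers 1 and 2 at 0 min correlated at 0.884 between them. The 2 comparisons are therefore not shown to be independent. The share of all genes called in both is not given here. Of the members 27 fell in both, 79.4% of the 4OHT list and 93.1% of the DMSO list. The 7 that rose in both were Rpl22l1, Rpl3, Rpl36a, Rps12, Rps26, Rps27l and Rps3a1, 100% of the 4OHT list and 58.3% of the DMSO list. Over the 88 members the log2 fold changes of the treatments had Pearson r = 0.973, as a description across genes. The change was the more positive with DMSO in 75 of the 88. In the interaction fit the difference was negative for 74 of the 88 members and for 11649 of 20640 genes. The same 8 min libraries gave the comparison of treatments, where 75 of the 88 changes were negative, so this is not a separate result.

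**Figure D4:**
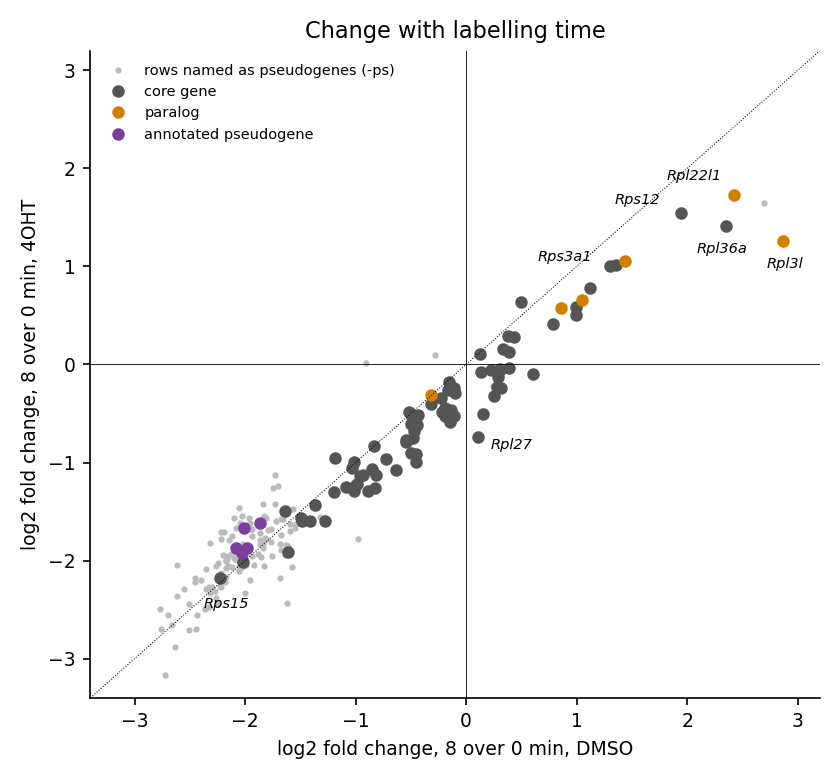
Log2 fold change, 8 over 0 min, with 4OHT (vertical axis) and with DMSO (horizontal axis), of the 88 members and of the 126 pseudogene entries named with -ps that were tested (small grey points). The dotted line marks equal change. Core genes (dark grey) spread between −2.22 and 2.35 with DMSO, paralogs (orange) lie mostly at the upper right, and the 5 pseudogene members (purple) lie among the other pseudogene entries between −2.08 and −1.87 with DMSO.

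The highest members were the same 4 in both treatments. Rps12, a small subunit gene that holds 3 snoRNAs, had 663 and 645 scaled reads at 8 min, against 220 and 226 at 0 min with 4OHT (log2 fold change 1.55 ± 0.20 SE, limma adjusted p = 0.00469). With DMSO it had 401 and 425 at 8 min, against 106 and 107 at 0 min (1.95 ± 0.20, limma adjusted p = 0.00139). Scaled reads of the treatments are on separate scales here. Its libraries of a group stood close together and far from the other time.

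Rpl22l1 had 339 and 368 scaled reads at 8 min, against 133 and 84.1 at 0 min with 4OHT (log2 fold change 1.73 ± 0.29 SE, limma adjusted p = 0.0077). With DMSO it had 309 and 356 at 8 min, against 77.9 and 47.9 at 0 min (2.42 ± 0.29, limma adjusted p = 0.00187). Rpl36a, an X-linked large subunit gene, had 118 and 129 at 8 min, against 44.0 and 47.6 at 0 min with 4OHT (1.41 ± 0.25, limma adjusted p = 0.00866). With DMSO it had 85.7 and 95.6 at 8 min, against 21.8 and 13.2 at 0 min (2.35 ± 0.32, limma adjusted p = 0.0026).

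With 4OHT Rpl3l had 3.50 and 13.2 scaled reads at 8 min and 0.841 and 5.07 at 0 min (log2 fold change 1.26 ± 0.83 SE, limma adjusted p = 0.248), and the times overlapped. It rose with DMSO, where it had 30.8 and 22.5 at 8 min, against 0.836 and 6.63 at 0 min (2.87 ± 0.69, limma adjusted p = 0.0147). The 4OHT change passed the threshold without 4OHT number 2 of 0 min (log2 fold change 2.19, limma adjusted p = 4.9e-05). The 2 treatments were not shown to differ in it (interaction limma adjusted p = 0.875).

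The lowest members were Rps15, Rpl41, Rpl8 and the copies Rps3a2 and Rps3a3, which are described further down. Rps15, a small subunit protein needed for export of the pre-40S particle, had 141 and 193 scaled reads at 8 min, against 1164 and 486 at 0 min with 4OHT (log2 fold change −2.18 ± 0.45 SE, limma adjusted p = 0.0133). With DMSO it had 102 and 74.2 at 8 min, against 601 and 279 at 0 min (−2.22 ± 0.39, limma adjusted p = 0.00521). Rpl41, which encodes the shortest ribosomal protein, had 547 and 595 at 8 min, against 3959 and 1346 at 0 min with 4OHT (−2.01 ± 0.53, limma adjusted p = 0.0259). With DMSO it had 358 and 272 at 8 min, against 2059 and 776 at 0 min (−2.02 ± 0.47, limma adjusted p = 0.0129).

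Rpl8, a large subunit protein near the peptidyl transferase centre, had 237 and 284 scaled reads at 8 min, against 1402 and 682 at 0 min with 4OHT (log2 fold change −1.91 ± 0.38 SE, limma adjusted p = 0.0122). With DMSO it had 176 and 162 at 8 min, against 705 and 381 at 0 min (−1.61 ± 0.32, limma adjusted p = 0.00788). In Rps15, Rpl41 and Rpl8 number 1 of 0 min was the higher library in both treatments. Rpl4 had 909 and 1035 at 8 min, against 3626 and 2381 at 0 min with 4OHT (−1.60 ± 0.31, limma adjusted p = 0.0114).

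Paralogs and core genes were counted apart, where with 4OHT 25.2% of all genes fell and 27.2% rose, and with DMSO 26.1% fell and 30.1% rose. Of the 77 core genes 30 fell and 5 rose with 4OHT, and 24 fell and 7 rose with DMSO. Of the 7 listed paralogs, which include the pseudogene Rps4l, 1 fell and 2 rose with 4OHT and 1 fell and 5 rose with DMSO, and in both treatments Rps4l was the one that fell. Rps27l had 303 and 328 scaled reads at 8 min, against 162 and 142 at 0 min with 4OHT (log2 fold change 1.05 ± 0.21 SE, limma adjusted p = 0.0125). Rpl10l had 35.3 and 45.4 at 8 min and 69.8 and 35.4 at 0 min with 4OHT (−0.31 ± 0.42, limma adjusted p = 0.561), with overlap. The difference between these groups of genes was not tested.

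For Rps3a1 the parent rose and both intronless copies fell, and for Rps12 the parent rose in both treatments while the copy fell with DMSO. Rps3a1 (chromosome 3) spans 4729 bases with introns, whereas Rps3a2 (chromosome 14, 88122952 to 88123833) and Rps3a3 (chromosome 13, 108670580 to 108671443) span 882 and 864 bases. Rps3a1 had 498 and 487 scaled reads at 8 min, against 247 and 242 at 0 min with 4OHT (log2 fold change 1.01 ± 0.20 SE, limma adjusted p = 0.0118), and rose by 1.36 ± 0.21 with DMSO (limma adjusted p = 0.00353). Rps3a2 had 834 and 918 at 8 min, against 4596 and 2391 at 0 min with 4OHT (−1.92 ± 0.38, limma adjusted p = 0.0118), and its change with DMSO was −2.03 ± 0.31 (limma adjusted p = 0.00348). Rps3a3 had 362 and 384 at 8 min, against 2033 and 915 at 0 min with 4OHT (−1.87 ± 0.41, limma adjusted p = 0.0155), and its change with DMSO was −2.08 ± 0.38 (limma adjusted p = 0.0056).

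Rps12l1, the copy of Rps12, had 169 and 195 scaled reads at 8 min, against 1047 and 321 at 0 min with 4OHT (log2 fold change −1.67 ± 0.56 SE, limma adjusted p = 0.0533). The copy had 97.5 and 62.3 with DMSO at 8 min, against 524 and 191 at 0 min and fell (−2.01 ± 0.49, limma adjusted p = 0.0153). Rpl6l and its parent Rpl6 both fell, with log2 fold changes of −1.87 and −1.06 with 4OHT and of −1.98 and −0.85 with DMSO. Rps4l fell, with changes of −1.62 with 4OHT and −1.87 with DMSO, and its parent Rps4x stood at −0.13 with 4OHT and 0.29 with DMSO, not past the threshold. Reads of near-identical sequences are uncertain, since the handling of reads with several matches is not given in the sources used here.

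Per kilobase, Rps3a2 stood 8.97 and 10.1 times above Rps3a1 at 8 min with 4OHT, against 100 and 52.99 times at 0 min. With DMSO the ratio was 8.04 and 6.46 at 8 min, against 102 and 56.7 at 0 min. For Rps12l1 over Rps12 the ratio was 1.13 and 1.34 at 8 min, against 21.2 and 6.29 at 0 min with 4OHT. With DMSO it was 1.08 and 0.650 at 8 min, against 22.0 and 7.94 at 0 min. For both copies and both treatments the ratio was lower at 8 min, and number 1 held the higher ratio at 0 min.

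**Figure D5:**
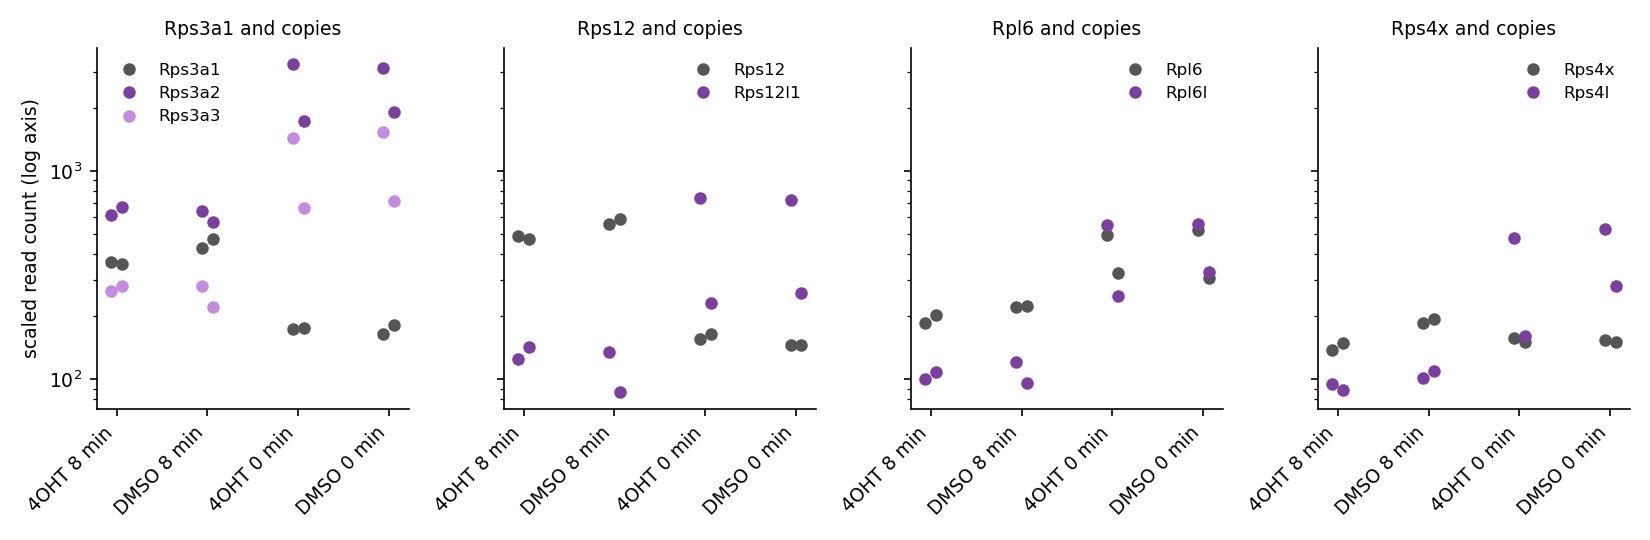
Scaled read count (log axis, all 8 libraries on 1 scale) of 4 parent genes in grey and their intronless copies in purple, in the order 4OHT 8 min, DMSO 8 min, 4OHT 0 min and DMSO 0 min, with number 1 left of number 2. Rps3a1 stood at 366 and 357 with 4OHT and 427 and 472 with DMSO at 8 min, above its level of 0 min, while Rps3a2 fell to 612 and 672 with 4OHT and 641 and 569 with DMSO at 8 min, against 3260 and 1739 with 4OHT and 3127 and 1912 with DMSO at 0 min.

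The same was seen in the pseudogene entries outside the members, whose names carry -ps. Of 216 such entries 126 passed the filter, which can keep an entry that is high at a single time. Among the 126, 104 fell and 0 rose with 4OHT and 118 fell and 1 rose with DMSO, with medians of −1.94 and −2.03. Among all genes tested, 25.2% fell and 27.2% rose with 4OHT, and 26.1% fell and 30.1% rose with DMSO. The 216 entries took 0.518% and 0.584% of gene reads at 8 min with 4OHT, against 1.92% and 0.866% at 0 min. With DMSO they took 0.586% and 0.446% at 8 min, against 1.92% and 0.960% at 0 min. The 5 pseudogene members took 0.0436% and 0.0462% at 8 min with 4OHT, against 0.140% and 0.0699% at 0 min. Number 1 was the higher library at 0 min in both treatments. Relative to all genes at 8 min, 11 of the 126 rose and 5 fell with 4OHT over DMSO, where 18.6% of all genes rose and 16.7% fell.

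Mitochondrial ribosomal protein genes went the other way with labelling time. Of 78 genes 40 rose and 2 fell with 4OHT and 44 rose and 2 fell with DMSO, with medians of 0.99 and 1.11. Among all genes tested, 27.2% rose and 25.2% fell with 4OHT, and 30.1% rose and 26.1% fell with DMSO. Of the 21 translation factors 4 rose and 5 fell with 4OHT and 5 rose and 6 fell with DMSO. Fau, whose protein carries a ubiquitin-like head, fell in both treatments, with −2.03 with 4OHT (limma adjusted p = 0.011) and −1.81 with DMSO (limma adjusted p = 0.00498). Rpl36al also fell in both, with −1.45 with 4OHT (limma adjusted p = 0.0342) and −1.77 with DMSO (limma adjusted p = 0.00803). Across the 83 members that are not pseudogenes, gene length ran with the change at r = 0.14 and rho = 0.15 with 4OHT and at r = 0.19 and rho = 0.16 with DMSO. The transcript Gm26917 took 3.87% to 5.75% of gene reads at 8 min and 31.4% to 34.8% at 0 min, and its part in the scaled values was not tested. Without it the members took 0.862% and 0.867% of gene reads at 8 min, against 1.37% and 1.098% at 0 min with 4OHT. With DMSO they took 1.01% and 0.972% at 8 min, against 1.37% and 1.16% at 0 min.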

How the data were processed

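Samples were grouped by their titles, and table columns were assigned to groups by the 4OHT and time in their names. The members, gene lists and tests were chosen with earlier results of these data known. The authors deposited a signal table, with bcl2fastq, STAR 2.7, Bowtie2 and mm10 named in the submitters' processing notes without their roles. The counter, strand and handling of multiple matches are not given in the sources used here. In each library 100% of values were whole reads (tolerance 0.01) divided by the reads of the entry LSU-rRNA_Hsa over 1000. Most nonzero read numbers were even (73.3% to 86.5%), as when both mates of a pair are counted.

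Gene entries with a deposited value of at least 10 in at least 2 libraries (20640) were tested as log2(value + 1) with limma 3.58.1 (R 4.3.3) as two-sided tests under an empirical Bayes trend, adjusted by Benjamini-Hochberg over all genes tested at 0.05. Fold changes are on the log2(value + 1) scale, which understates changes of low genes. The deposited scale was fitted on 8 libraries; relative comparisons used median-ratio scaling of the libraries compared, and a scaled read count is a deposited value divided by that factor. Alternatives were a pseudocount of 0.5 or 5, a minimum of 100 or no filter, quantile normalization, leaving out each library, a replicate block, and, from the recovered reads, DESeq2 1.42.0 and the quasi-likelihood test of edgeR 4.0.16. The script was tested on simulated data. Each SE comes from the spread between libraries, so whether it covers PCR and culture variation in full is not known. The 2 libraries per group limit precision.

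Coordinates and biotypes are RefSeq GRCm38.p6, matched by symbol for all 88 members. Members given library by library were, in the relative 8 min comparison, up to 8 per direction of smallest p past the threshold with separate groups; in each labelling-time comparison the 4 highest and 4 lowest; at 0 min and in the interaction the 3 of smallest p; 7 paralogs; and the member of most reads. From other lists up to 3 of smallest p were named. Rpl5, Rpl3, Rpl12, the stalk genes, the parents of copies and the remaining called members were named outside that rule, after their values were seen. Some entries of the marker and gene lists are not reported here.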

Additional observations from a re-analysis of the deposited data

Results flagged for a closer look

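For 3 members the libraries with 4OHT lay wholly below those with DMSO at 8 min and wholly above them at 0 min. Taken alone, the order at 8 min was seen in 67 of the 88 members and in 6951 of 20640 genes. The order at 0 min was seen in 4 members and in 1979 genes. How many of all genes showed both orders is not given here. Rpl27 changed by −0.51 at 8 min, where it had 234 and 229 scaled reads with 4OHT and 313 and 347 with DMSO. At 0 min it had 98.7 and 103 with 4OHT and 81.5 and 89.4 with DMSO. Rpl36a changed by −0.39 at 8 min, with 172 and 184 with 4OHT and 223 and 244 with DMSO, and at 0 min it had 16.3 and 18.1 with 4OHT and 15.7 and 9.48 with DMSO. Rps12 changed by −0.17 at 8 min, with 966 and 920 with 4OHT and 1040 and 1086 with DMSO, and at 0 min it had 81.3 and 85.9 with 4OHT and 76.1 and 76.9 with DMSO. The interaction of treatment and time did not pass the threshold for any of the 3, with limma adjusted p of 0.746 for Rpl27, 0.79 for Rpl36a and 0.876 for Rps12.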

How the results depend on the processing

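The table's columns carry the numbers 1 and 2 through all groups and the sample titles do not, so the pairing is not settled. Same-numbered libraries deviated together unevenly, with correlations between groups of 0.019 to 0.416 over all genes tested. Over the members they ran from −0.448 between DMSO and 4OHT at 8 min to 0.884 between DMSO and 4OHT at 0 min. With the number as a replicate block, 85 members were higher and 1 lower on the deposited scale at 8 min, and relative to all genes 2 were higher and 33 lower. With the block and the 4 libraries of 8 min, an alternative added after the data were seen, 86 were higher and 1 lower. For these and the other alternatives the share of all genes called is not given here. On the deposited scale 2 members were higher without the filter and 1 was lower with a pseudocount of 5, and leaving out a library gave 0 to 63 higher and 0 lower. Relative to all genes at 8 min, 13 fell without the filter and 0 with all 8 libraries in a single fit; 2 rose with a pseudocount of 5, 0 with a minimum of 100 and 0 with all 8 libraries; leaving out a library gave 12 to 24 lower and 0 to 4 higher. Quantile normalization gave 40 lower and a minimum of 100 gave 38. For 8 over 0 min with 4OHT, 11 rose and 14 fell without the filter and 3 rose with a minimum of 100, and leaving out a library gave 0 to 17 higher and 0 to 59 lower. With DMSO, 15 fell without the filter, 6 rose and 46 fell with a minimum of 100, and leaving out a library gave 0 to 20 higher and 0 to 45 lower. The median of the members for 8 over 0 min was −0.21 without the filter and −1.03 with a minimum of 100 with 4OHT, and −0.14 and −0.92 with DMSO. Without 4OHT replicate 2 of 0 min the median at 0 min changed sign to 0.05. Without 4OHT replicate 1 or 2 of 0 min the median interaction was −0.07 or −0.38. Over all alternatives for the named members, the call was lost in 44 cases and gained in 1, which include the cases described above. Where a count fell on leaving out a library, fewer samples were fitted; the cause of the other shifts was not tested. At 0 min Rpl3l and Rpl39l had the fewest reads, which limits what can be detected for them.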
